A study of Mus musculus with 8 samples.

Results

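Sphingosine 1-phosphate (S1P) genes were followed in endothelial cells of a mouse melanoma: the receptors S1pr1 and S1pr3, the kinases Sphk1 and Sphk2, the exporter Spns2 and the phosphatase Sgpp1. These 6 genes were taken by name from the 28692 gene symbols of a single-cell matrix, and all 6 were present in it. S1P is a signalling lipid made inside cells by phosphorylation of sphingosine, released through transporters and read outside by a family of G protein-coupled receptors. In blood vessels, signalling through S1PR1 is known to stabilise junctions between endothelial cells and to restrain sprouting, and S1P released from lymphatic endothelium is known to guide lymphocytes into lymph. Inside the cell, S1P can be returned to sphingosine by phosphatases or cleaved by a lyase.

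The tumour was the MT-ret melanoma, a line of tumours from mice in which a metallothionein promoter drives the Ret oncogene, implanted as fragments on the flank of 10 C57BL/6N mice. The 2 groups were lymphatic endothelial cells (LEC) and blood vascular endothelial cells (BEC) sorted by flow cytometry from the tumours, 10000 cells of each per the labels, and both came from tumour-bearing mice of the same strain, with no treatment named in the labels. No endothelium from healthy tissue was among the samples, and the ages of the mice and the sort markers are not given in the sources used here. The labels list 4 libraries for each sort, made with a droplet kit that reads the 3′ ends of transcripts and tags captured molecules with a unique molecular identifier (UMI).

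The LEC sort held 4407 cells with 59273049 UMIs and a median of 11000 UMIs a cell, and the BEC sort 3228 cells with 71304111 UMIs and a median of 19416. The names of the cells carry no library number, so each sort was 1 sample: there is no replicate check, no test and no p-value, and all intervals are 95% intervals for counting error only. The sorts shared 34 cell barcodes. In genes with a UMI in 1 to 3% of cells, the values above 0 bunched at 1 to 4 UMIs. Values of 4 made up 17.7% of them in LEC and 11.7% in BEC, and values of 5 made up 1.24% in LEC and 1.21% in BEC. The number at which the values break off is the number of libraries of a sort. Whether 1 molecule was counted in several libraries was not tested, but UMIs were not taken as independent: each interval of a CPM or of a ratio was computed on the UMI count divided by 4, which makes it about 2-fold wider than an interval on every UMI. Intervals of a share of cells count cells and were not widened.

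**Figure D1:**
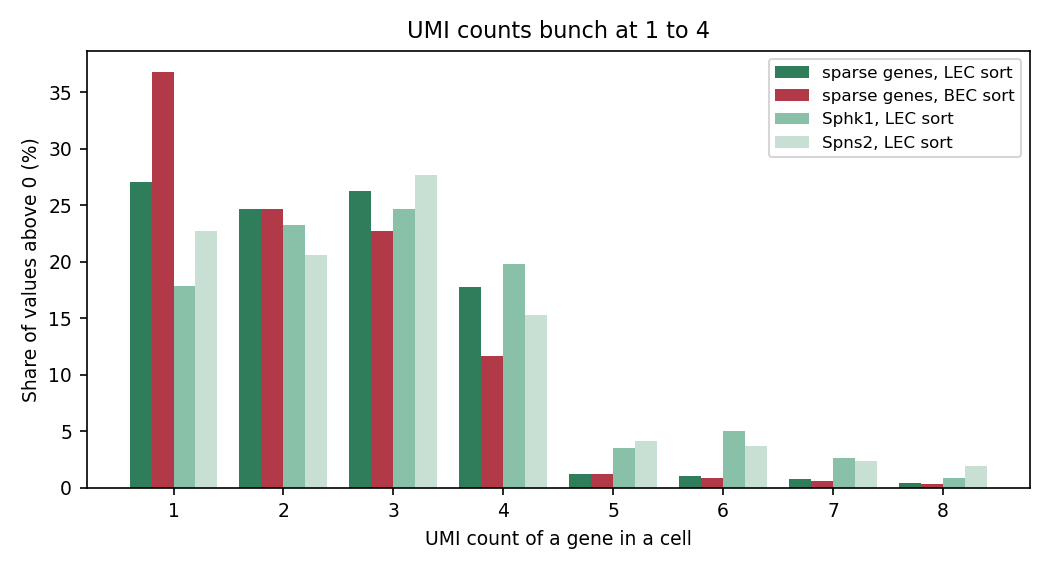
Share of the values above 0 (y axis, %) that were 1 to 8 UMIs (x axis), for sparse genes of the LEC sort (2040 genes), sparse genes of the BEC sort (1569 genes), and Sphk1 and Spns2 in the LEC sort. In all 4 sets the share drops between 4 and 5 UMIs, in LEC sparse genes with 17.7% at 4 and 1.24% at 5.

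Cells were gated by marker genes: a cell was assigned to the class with most marker UMIs if these were at least 4 times those of every other class. The 6 lymphatic markers (Prox1, Lyve1, Pdpn, Reln, Mmrn1, Flt4) summed to 3533 counts per 1000000 UMIs (CPM) among sorted LEC, against 63.7 CPM among sorted BEC, and the 6 blood vascular markers (Flt1, Nrp1, Esm1, Cd93, Plvap, Mcam) to 1017 CPM among sorted LEC, against 8736 CPM among sorted BEC. The gate kept 2371 LEC in the LEC sort and 3113 BEC in the BEC sort, here called own-type cells. It also found 88 BEC in the LEC sort and 4 LEC in the BEC sort, 245 and 19 cells with pigment markers (Dct, Tyrp1, Tyr, Pmel, Mlana; 5.56% and 0.589% of the sorts), and 5 and 12 stromal cells. A further 1697 sorted LEC and 80 sorted BEC stayed ungated. In 1072 of those 1697 cells lymphatic markers led and blood vascular markers came second. The 6 leukocyte markers summed to 22.9 CPM in own-type LEC, against 14.2 CPM in own-type BEC. Fcer1g was the highest of them, at 10.8 CPM in LEC (80 cells, 3.37%), against 10.99 CPM in BEC (120 cells, 3.85%), and Ptprc, the general leukocyte marker, the lowest, at 0.179 CPM in LEC, against 0.0724 CPM in BEC. Their part in the results was not tested.

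Over all cells, the LEC sort exceeded the BEC sort at least 2-fold in 2 of the 5 members at 10 CPM or more, Sphk1 and S1pr3, as it did in 11.7% of 8307 genes. The BEC sort was at least 2-fold higher in 0 of the 5, as it was in 8.76% of genes. In own-type cells Sphk1 alone of 4 members at 10 CPM passed that bound, against 11.9% of 8275 genes higher in LEC, and again 0 were higher in BEC, against 9.72%. The median log2 ratio of all genes was 0.105 over own-type cells. Sgpp1 was below 10 CPM in both sorts and could not be counted, and among own-type cells S1pr3 was below it as well.

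**Figure D2:**
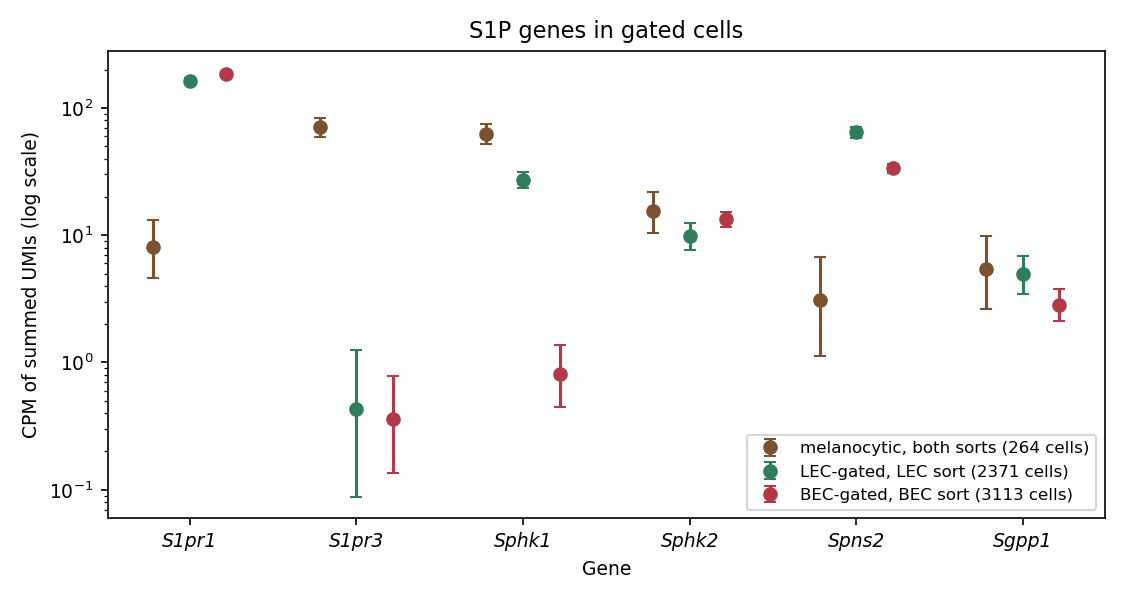
CPM (y axis, log scale) of the 6 genes (x axis) in 264 melanocytic-gated cells of both sorts, 2371 LEC-gated cells of the LEC sort and 3113 BEC-gated cells of the BEC sort, with 95% intervals for counting error on UMIs divided by 4. S1pr1 and Spns2 sat at 163 and 64.1 CPM in LEC and far lower in melanocytic cells, S1pr3 at 70.5 CPM in melanocytic cells and below 1 CPM in both endothelial classes, and Sphk1 at 27.0 CPM in LEC, against 0.811 CPM in BEC.

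The kinases that make S1P differed in opposite directions between the endothelial types. Sphk1 encodes the mainly cytosolic kinase, and it gave the largest LEC-to-BEC ratio of the 6 genes. In own-type cells it was at 27.0 CPM in LEC (23.3 to 31.1; 756 UMIs in 258 of 2371 cells), against 0.811 CPM in BEC (0.443 to 1.36; 56 UMIs in 24 of 3113 cells), 33.3-fold higher in LEC (19.4 to 62.1). These intervals are far apart. The highest single cell held 1.32% of the LEC UMIs and 7.14% of the BEC UMIs, so no single cell carried either value.

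The Sphk1 difference was also present within 1 sort, although the library of each cell is not known. Among sorted LEC, LEC-gated cells had 27.0 CPM and the 88 BEC-gated cells 3.37 CPM (6 UMIs in 2 cells), an 8.0-fold ratio with a wide interval (1.85 to 112). The ungated cells of that sort stood at 26.9 CPM, close to the LEC-gated cells. When each cell was thinned to 5000 UMIs, 7.76% of LEC (6.72 to 8.91%) and 0.321% of BEC (0.154 to 0.590%) had a Sphk1 UMI. Thinning drew single UMIs and so set all cells to the same UMI count. If 1 molecule gave several UMIs, thinned LEC and BEC can still differ in their number of molecules, and this limit holds for all thinned shares. Without thinning the shares were 10.9% of LEC at a median of 10144 UMIs and 0.771% of BEC at a median of 19600.

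Sphk1 was not restricted to lymphatic cells. Melanocytic cells had 62.9 CPM (52.3 to 75.1; 490 UMIs in 106 of 264 cells), 2.33-fold above LEC (1.84 to 2.94) and 77.6-fold above BEC (44.5 to 146). They held 24.9% of the Sphk1 UMIs of the LEC sort while making up 11.8% of its UMIs. In LEC-gated cells Sphk1 stood at 41.9% of its level in melanocytic cells of the same sort (64.5 CPM). The 5 pigment markers together stood at 0.620% of theirs. The gate itself used these markers to keep cells out of the LEC class, so their share sets no bound on free RNA. Whether Sphk1 UMIs of LEC-gated cells came from free RNA was not tested.

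Sphk2, the kinase found largely at the nucleus and other internal membranes, was lower in LEC. It was at 9.90 CPM in LEC (7.70 to 12.5; 277 UMIs), against 13.3 CPM in BEC (11.6 to 15.1; 919 UMIs), 1.35-fold higher in BEC (1.02 to 1.79). The lower bound lies close to 1. After thinning, 2.83% of LEC (2.20 to 3.57%) and 4.66% of BEC (3.94 to 5.46%) had a UMI. Melanocytic cells had 15.4 CPM (10.4 to 22), so neither they nor the own-type cells lacked the gene and no background share could be set beside it. The 17 stromal cells held 1 UMI, too few to serve as background. Sphk2 overlaps Dbp and Rpl18 on the other strand, and since the use of strand in counting is not given, reads from these genes cannot be told apart from its own.

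Spns2 encodes the membrane transporter that releases S1P from endothelial cells. It was at 64.1 CPM in LEC (58.3 to 70.3; 1795 UMIs in 607 cells), against 33.6 CPM in BEC (30.9 to 36.5; 2321 UMIs in 841 cells), 1.91-fold higher in LEC (1.68 to 2.16), just short of the 2-fold bound. Among sorted LEC, LEC-gated cells had 64.1 CPM and BEC-gated cells 29.2 CPM, a 2.19-fold ratio (1.27 to 4.15), and ungated cells had 72.4 CPM. The 88 BEC found among sorted LEC thus had a Spns2 level near that of the BEC sort.

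The share of cells with a Spns2 UMI showed the difference only once the UMI counts of cells were equalised. As deposited, 25.6% of LEC and 27.0% of BEC had a UMI. After thinning to 5000 UMIs the shares were 18.3% in LEC (16.8 to 20.0%) and 13.1% in BEC (11.9 to 14.3%), against 0.379% of melanocytic cells, of which 1 of 264 had a UMI. Melanocytic cells had 3.08 CPM, 20.8-fold less than LEC (9.49 to 57.0). Spns2 overlaps Mybbp1a on the other strand, with the same limit as above.

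The windows before the annotated starts of Sphk1 and Spns2, the members with the largest LEC-to-BEC ratios in own-type cells, and of S1pr3, most of whose UMIs in the LEC sort were in melanocytic cells, are printed with the motif CACCC, or GGGTG on the other strand, in capitals. This is the core to which Krüppel-like factors bind, among them KLF2, the flow-induced endothelial factor whose gene was higher in LEC (given with the pathway genes). Whether KLF2 binds these windows or has a part in the levels of these genes was not tested. The sequences are the 250 bases before each start in RefSeq on GRCm38.p6, written 5′ to 3′ on the gene's strand. Of the 6 genes, 5 were matched in that table; S1pr1 was not among them.
Sphk1, start 2 (chr11:116531587-116531836, plus strand): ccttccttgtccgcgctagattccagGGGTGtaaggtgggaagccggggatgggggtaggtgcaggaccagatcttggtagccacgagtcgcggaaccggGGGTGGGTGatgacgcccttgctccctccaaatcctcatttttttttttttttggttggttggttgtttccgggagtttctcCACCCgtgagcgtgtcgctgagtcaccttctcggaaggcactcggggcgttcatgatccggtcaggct
Sphk1, start 4 (chr11:116532194-116532443, plus strand): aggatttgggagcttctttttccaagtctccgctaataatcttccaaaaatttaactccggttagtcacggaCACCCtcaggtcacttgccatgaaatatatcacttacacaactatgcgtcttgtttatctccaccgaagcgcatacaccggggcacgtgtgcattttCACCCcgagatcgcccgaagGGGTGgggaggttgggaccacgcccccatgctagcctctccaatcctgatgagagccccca
Spns2 (chr11:72475028-72475277, minus strand): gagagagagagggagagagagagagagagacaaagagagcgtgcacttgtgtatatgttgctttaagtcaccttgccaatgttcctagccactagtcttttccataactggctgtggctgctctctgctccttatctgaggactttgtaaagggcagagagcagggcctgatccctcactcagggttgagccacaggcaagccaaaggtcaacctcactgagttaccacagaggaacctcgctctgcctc
S1pr3 (chr13:51408368-51408617, plus strand): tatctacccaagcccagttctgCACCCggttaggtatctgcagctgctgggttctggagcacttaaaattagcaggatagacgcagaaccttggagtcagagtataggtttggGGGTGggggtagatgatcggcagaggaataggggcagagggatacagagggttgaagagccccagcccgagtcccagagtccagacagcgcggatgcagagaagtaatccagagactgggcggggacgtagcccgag

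The table lists 5 starts for Sphk1, with 0 to 4 matches in each window, and the windows of starts 2 and 3, and of starts 4 and 5, overlap. Start 2 has 4 matches, 2 of them overlapping each other, start 4 has 3, S1pr3 has 2 and Spns2 has 0. Of the windows not printed, that of Sphk1 start 1, the most upstream of the 5, has 0 matches, and those of starts 3 and 5 have 3 each. The windows of Sphk2, which was lower in LEC, have 1 and 2 matches, and that of Sgpp1, which was higher in LEC, has 0. A CACCC match is common, being present in 52.0% of the 32851 promoter windows of the same length. The 3′ libraries do not show which Sphk1 start was used. The Spns2 window lies inside the GENCODE gene, which begins further upstream.

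S1pr1, the main S1P receptor of endothelium, was present in both vessel types and slightly lower in LEC. In own-type cells it was at 163 CPM in LEC (153 to 173; 4557 UMIs), against 185 CPM in BEC (179 to 191; 12770 UMIs), 1.14-fold higher in BEC (1.06 to 1.22). Over all cells of the sorts the values were 137 CPM in LEC, against 181 CPM in BEC, 1.32-fold higher in BEC (1.25 to 1.40), and 1.19-fold higher (1.12 to 1.25) once the melanocytic, stromal and leukocyte gates were left out. Melanocytic cells had 8.09 CPM (4.60 to 13.2), 20.1-fold lower than LEC and 22.9-fold lower than BEC.

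Within the LEC sort the order of S1pr1 was the same, with 163 CPM in LEC-gated cells and 225 CPM in the 88 BEC-gated cells (183 to 274). In cells thinned to 5000 UMIs, 39.4% of LEC (37.4 to 41.4%), 51.2% of BEC (49.4 to 52.9%) and 2.65% of melanocytic cells had an S1pr1 UMI. Without thinning these were 50.9% of LEC, 76.4% of BEC and 10.2% of melanocytic cells. S1pr1 was thus detected far above the level of the melanocytic cells in both vessel types.

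S1pr3, a receptor known from vascular smooth muscle and endothelium, was below 1 CPM in own-type cells of both sorts and far higher in melanocytic and stromal cells. The whole sorts differed 5.29-fold (3.63 to 7.90), with 10.2 CPM in LEC, against 1.92 CPM in BEC. In own-type cells the level was 0.429 CPM in LEC (12 UMIs in 7 cells), against 0.362 CPM in BEC (25 UMIs in 13 cells), a ratio of 1.18 whose interval of 0.193 to 5.44 allows either direction. Melanocytic cells of both sorts had 70.5 CPM (59.2 to 83.3; 549 UMIs in 138 of 264 cells), and the 17 stromal cells had 124 CPM (57.4 to 233; 37 UMIs in 9 cells).

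The melanocytic cells, 5.56% of the LEC sort, held 84.6% of its S1pr3 UMIs, ungated cells 12.3% and LEC-gated cells 1.99%. In the BEC sort, 29.2% of the S1pr3 UMIs were in 19 melanocytic cells, 21.9% in 12 stromal cells, 30.7% in 80 ungated cells and 18.2% in the 3113 BEC-gated cells. S1pr3 in LEC-gated cells stood at 0.590% of its level in melanocytic cells of the same sort, and the 5 pigment markers at 0.620% of theirs. In BEC-gated cells the values were 0.704% for S1pr3 and 0.115% for the pigment markers. The gate itself used the pigment markers to keep cells out of these classes, and whether the S1pr3 UMIs of own-type cells came from free RNA was not tested. After thinning, 3 of 2371 LEC (0.127%) and 3 of 3113 BEC (0.0964%) had a UMI, against 28% of melanocytic cells.

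**Figure D3:**
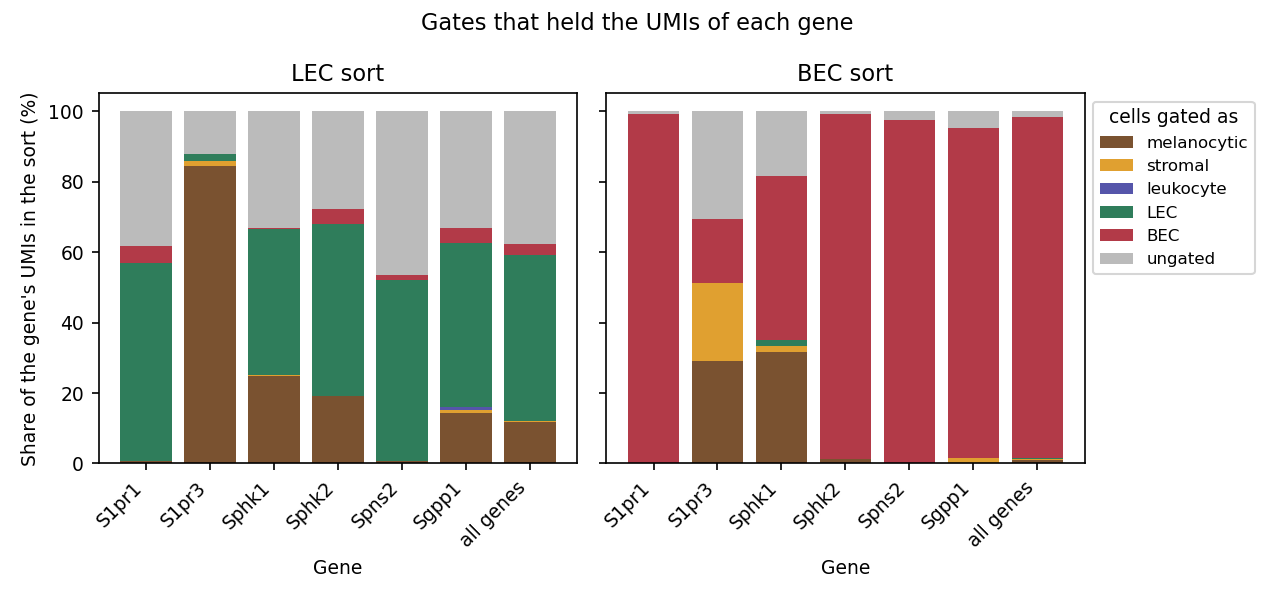
Share of each gene's UMIs (y axis, %) held by cells of each gate in the LEC sort (left) and the BEC sort (right), with all genes together as the last bar. Melanocytic cells held 84.6% of the S1pr3 UMIs of the LEC sort and 24.9% of its Sphk1 UMIs, against 11.8% of all its UMIs.

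Sgpp1 encodes a phosphatase of the endoplasmic reticulum that returns S1P to sphingosine, and few of its UMIs were read in either vessel type. It was at 4.93 CPM in LEC (3.42 to 6.87; 138 UMIs), against 2.85 CPM in BEC (2.11 to 3.77; 197 UMIs), 1.73-fold higher in LEC (1.08 to 2.72). The shares of thinned cells with a UMI, 1.60% in LEC (1.14 to 2.19%) and 1.28% in BEC (0.920 to 1.75%), had overlapping intervals. Melanocytic cells had 5.39 CPM (2.64 to 9.78), within the range of LEC.

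Own-type cells were divided into subsets by marker genes, each named by its first marker or by cell cycle genes, and each member was compared between a subset and the other own-type cells of that sort. The markers were chosen with clusters of these same cells known, and a subset is a range of a score, with 400 of 2371 LEC and 638 of 3113 BEC within 0.25 of the limit. S1pr1 lay between 110 CPM in cycling cells and 205 CPM in the Cd74 subset (Cd74, Ccl2, Vcam1, H2-Aa) of LEC. In BEC it lay between 140 CPM in cycling cells and 226 CPM in the Npr3 subset.

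Cycling cells had the lowest S1pr1 of the named subsets in both vessel types. In LEC, S1pr1 was at 110 CPM in 94 cycling cells and 167 CPM in the other LEC, 1.51-fold lower (1.14 to 2.04), where 16.7% of 8283 genes were at least 1.5-fold lower. In BEC it was at 140 CPM in 188 cycling cells and 189 CPM in the other BEC, 1.35-fold lower (1.18 to 1.55). Cycling cells were deeper, with medians of 16685 UMIs in LEC and 31496 in BEC, and the part of depth in these CPM differences was not tested. At the other end, the BEC Npr3 subset had 226 CPM and the other BEC 179 CPM, 1.27-fold higher (1.15 to 1.39), and the arterial-type Gja5 subset 214 CPM.

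Spns2 spread more widely over the BEC subsets than S1pr1 did. In BEC the Ackr1 subset, which carries venular adhesion genes (Ackr1, Selp, Sele, Vwf), had 60.7 CPM (48 to 75.7) and the other BEC 31.4 CPM, 1.93-fold higher (1.5 to 2.45), where 12.8% of 7808 genes were at least 1.5-fold higher. Its interval overlapped those of all 6 LEC subsets. The Apln subset, which carries tip-cell-type genes (Apln, Kit, Angpt2), had 21.6 CPM and the other BEC 35.5 CPM, 1.64-fold lower (1.23 to 2.24), where 8.99% of 7563 genes were as much lower. The other BEC subsets lay between 24.8 and 37.9 CPM.

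In LEC, Spns2 lay between 70.4 and 83.0 CPM in 4 subsets and was lower in the Ndufa4l2 and cycling subsets. The Ndufa4l2 subset (Npy, Ndufa4l2, Pgf) had 34.5 CPM (22.6 to 50.4) and the other LEC 67.8 CPM, 1.96-fold lower (1.33 to 3.03), where 20.6% of 8092 genes were at least 1.5-fold lower. Cycling LEC had 43.1 CPM and the other LEC 65.6 CPM, with an interval of the ratio that included 1. Spns2 in the Ndufa4l2 subset was thus at the level of BEC, while S1pr1 in the same cells, at 169 CPM, was not apart from the other LEC at 162 CPM.

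Sphk1 was higher in every named LEC subset than in any BEC subset. It ranged from 9.58 CPM in cycling cells through 18.2 CPM in Ndufa4l2, 24.8 CPM in Tppp3, 28.2 CPM in Foxp2 and 34.6 CPM in Cd74 cells to 37.3 CPM in Cd24a cells of LEC, and did not exceed 1.75 CPM in any BEC subset. Neighbours in this order had overlapping intervals. In the 414 Npr3 cells of BEC 0 UMIs were read, with an interval that reaches 1.70 CPM. The cycling LEC value rests on 18 UMIs, and its interval (2.87 to 23.3) overlaps those of some BEC subsets. It was 2.95-fold lower than in the other LEC (1.19 to 9.94), and on the log2 scale with 1 CPM added the difference was -1.47, but -0.66 with the wider cycling gate at a score of 0.5.

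Sphk2 lay between 5.99 and 9.44 CPM in the named LEC subsets and between 11.4 and 14.6 CPM in the BEC subsets, all with overlapping intervals. The 1032 LEC in no named subset had 13.2 CPM of Sphk2 (9.37 to 18.2), where own-type BEC had 13.3 CPM. The other LEC had 7.57 CPM, a ratio of 1.75 (1.06 to 2.90) whose lower bound lies close to 1. The share of all genes that differed as much in these cells was not computed. Among LEC subsets Sgpp1 reached 9.58 CPM in cycling cells (18 UMIs) and 8.27 CPM in the Tppp3 subset (32 UMIs), with intervals of the ratio to the other LEC that included 1. Among BEC subsets it was highest in the Aplnr subset, at 7.03 CPM (4.13 to 11.2; 70 UMIs) in these cells and 2.15 CPM in the other BEC, 3.27-fold higher (1.72 to 6.05), below the minimum of 10 CPM used for counting. S1pr3 had at most 3 UMIs in any named subset.

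**Figure D4:**
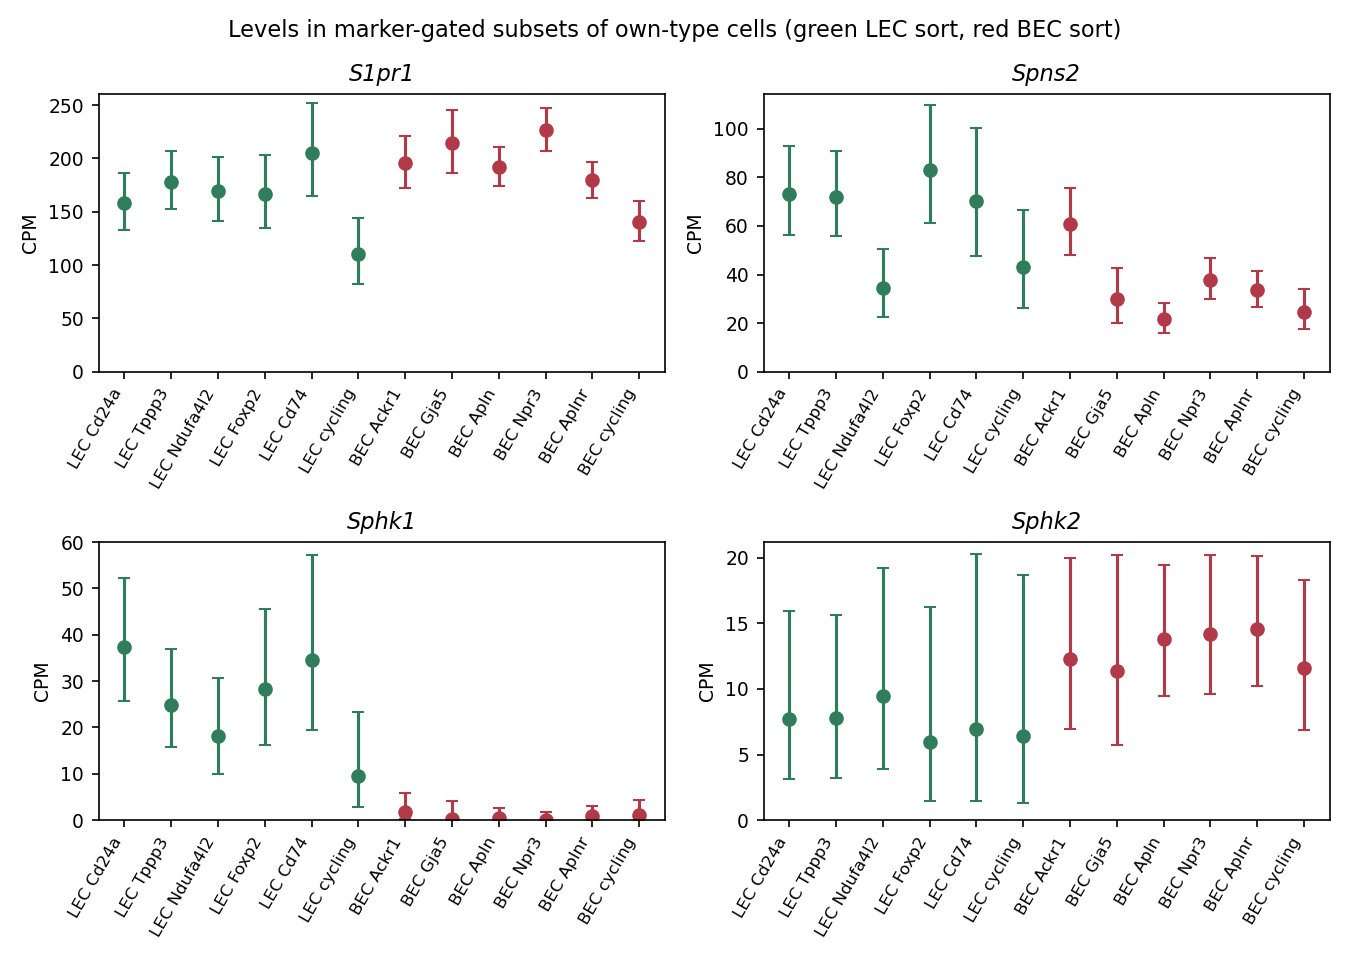
CPM (y axes, from 0) of S1pr1, Spns2, Sphk1 and Sphk2 in the marker-gated subsets (x axis), LEC subsets in green and BEC subsets in red, with 95% intervals for counting error on UMIs divided by 4. Sphk1 stays at or below 1.75 CPM in all BEC subsets, and Spns2 is at 60.7 CPM in the BEC Ackr1 subset and 34.5 CPM in the LEC Ndufa4l2 subset.

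In single cells, Spns2 was read in similar shares of LEC with and without a Sphk1 UMI. In thinned LEC, 17.4% of the 184 cells with a Sphk1 UMI (12.2 to 23.7%) and 18.4% of the 2187 cells without one (16.8 to 20.1%) had a Spns2 UMI. Both were read in 1.35% of LEC. S1pr1 was read in 44.6% of LEC with a Sphk1 UMI (37.3 to 52.1%) and 39.0% of LEC without (36.9 to 41.0%), and Spns2 in 17.2% of LEC with an S1pr1 UMI and 19.1% of LEC without. In BEC, 13.4% of cells with an S1pr1 UMI and 12.7% of cells without had a Spns2 UMI. All of these pairs of intervals overlapped. None of the 6 genes was read in 43.4% of thinned LEC and 39.8% of thinned BEC, so at this depth a cell without a UMI is not a cell without the gene.

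Beyond the 6 genes, 61 symbols of S1P and sphingolipid genes were listed, 60 of them in the matrix, since Grk2 stands there under its older symbol Adrbk1. At 10 CPM or more in own-type cells there were 39, of which LEC had 4 that were at least 2-fold higher and BEC had 8. Their median log2 ratio was 0.090, close to the 0.105 of all genes, and 4 of 39 and 8 of 39 stand beside 11.9% and 9.72% of all genes.

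Among the other receptors, S1pr4, known mainly from lymphoid cells, was at 8.65 CPM in LEC, against 24.6 CPM in BEC, 2.85-fold higher in BEC (2.17 to 3.79). It was read in 578 of 3113 BEC, no BEC held more than 0.647% of its UMIs, and it was highest in the Gja5 subset at 45.2 CPM (33.0 to 60.6). S1pr2 was at 1.25 CPM in LEC, against 1.39 CPM in BEC, and at 15.5 CPM in melanocytic cells. S1pr5 had 0 UMIs in both sorts, as had Cd69, whose product pulls S1PR1 from the surface of lymphocytes.

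Of the other transporters, Abca1, a cholesterol exporter also linked to S1P release, was at 93.9 CPM in LEC, against 67.7 CPM in BEC, and Abcb1a, a drug efflux pump of vessel walls, at 1.14 CPM in LEC, against 15.8 CPM in BEC, 13.8-fold higher in BEC (6.91 to 32.3). Mfsd2b, the S1P exporter of red cells and platelets, was nearly absent from both, with 0.422 CPM over all sorted LEC and 0.603 CPM over all sorted BEC.

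Among the genes of S1P breakdown, Plpp3 differed most. Plpp3, a surface phosphatase that removes the phosphate from S1P and related lipids, was at 82.2 CPM in LEC (75.7 to 89.2), against 757 CPM in BEC (744 to 770), 9.20-fold higher in BEC (8.46 to 10.0). The order was the same within the LEC sort, with 82.2 CPM in LEC-gated and 645 CPM in BEC-gated cells. Among the BEC subsets Plpp3 lay between 336 CPM in the Apln subset and 1211 CPM in the Npr3 subset. Of its relatives, Plpp2 was at 22.3 CPM in LEC, against 48.8 CPM in BEC, and Plpp1 was at 760 CPM in LEC, against 714 CPM in BEC. Sgpl1, the S1P lyase, was at 5.36 CPM in LEC, against 5.30 CPM in BEC.

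In the supply of ceramide and sphingosine, 2 of 20 genes at 10 CPM favoured LEC by 2-fold or more and 3 favoured BEC, where 11.9% and 9.72% of all genes did, shares near those of the list. Sptssa, a small subunit of serine palmitoyltransferase, the first enzyme of the route, was 2.86-fold higher in LEC, with 453 CPM in LEC, against 158 CPM in BEC. Degs1, the desaturase that completes ceramide, was 2.07-fold higher in BEC, with 474 CPM in LEC, against 980 CPM in BEC. The others by abundance, Cers2, Sptlc2, Asah1 and Cers5, differed by less than 2-fold. Genes singled out after their values were seen were the glucosylceramide synthase gene Ugcg (114 CPM in LEC, 21.5 CPM in BEC), the catalytic subunit gene Sptlc1 (22.8 CPM in LEC, 73.7 CPM in BEC) and the alkaline ceramidase gene Acer2 (7.93 CPM in LEC, 45.7 CPM in BEC).

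Of the genes of receptor coupling and trafficking, Klf2 encodes a flow-induced transcription factor known to raise S1pr1 in lymphocytes and endothelium. Klf2 was at 2518 CPM in LEC, against 926 CPM in BEC, 2.72-fold higher in LEC (2.66 to 2.78). S1pr1 was 1.14-fold lower in LEC, and whether Klf2 had a part in its level was not tested. Gnai2, the main inhibitory G protein subunit to which S1PR1 couples, was at 664 CPM in LEC, against 1056 CPM in BEC, 1.59-fold higher in BEC. Gna11 was 2.22-fold higher in BEC, and Rhoa, Rac1 and Dnm2 differed by less than 1.5-fold. Arrb2, a beta-arrestin gene singled out after its values were seen, was 2.18-fold higher in LEC at 14.0 CPM in LEC, against 6.42 CPM in BEC.

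**Figure D5:**
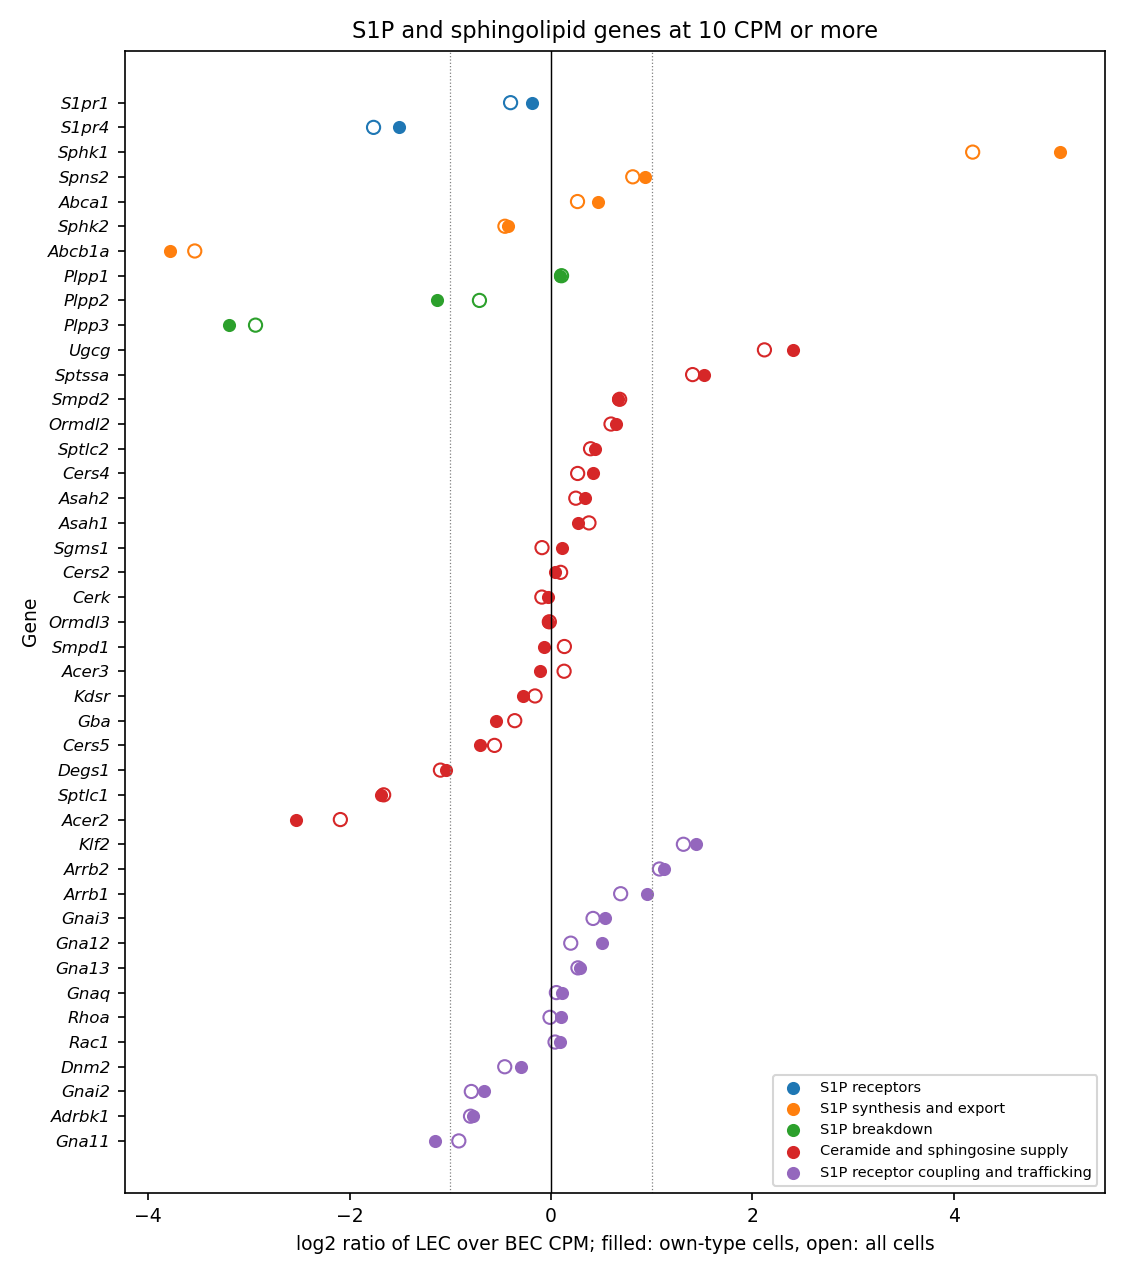
Log2 ratio of LEC over BEC CPM (x axis) of the S1P and sphingolipid genes at 10 CPM or more in own-type cells (y axis), coloured by list, filled for own-type cells and open for all cells, with dotted lines at 2-fold. Nothing was added to the CPM before the ratio was taken. Sphk1 lies farthest to the LEC side, 33.3-fold in own-type cells, and Abcb1a (13.8-fold) and Plpp3 (9.20-fold) farthest to the BEC side.

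Over the 12 named subsets, Pearson correlation of log2(CPM + 1) ranked 4657 or 4658 genes by likeness to each member, as a description: the subsets come from 2 sorts, and any gene that separates LEC from BEC follows any other. Nearest to Sphk1 were Shc1 (r = 0.99), Meis2, Dhx58os, G0s2 and AY036118, and nearest to Spns2 were Gstt2 (r = 0.96), Clk1, Mical3, Tob2 and Jun. S1pr1 was nearest to Smim20 (r = 0.90), Ubxn4, Akap9, Slfn5 and Tm2d3, and Sphk2 to Rgcc (r = 0.96), Hspg2, Hoxb4, Fyn and Nus1. By rank correlation 1 of these 5 stayed among the nearest 5 for S1pr1 (Smim20) and Sphk2 (Rgcc), 2 for Spns2 (Mical3 and Tob2) and 0 for Sphk1.

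On GRCm38 the genes lie on chromosome 3 (S1pr1, 115710433 to 115715072, minus strand), chromosome 13 (S1pr3, 51408639 to 51422797, plus strand), chromosome 11 (Sphk1, 116530925 to 116536674, plus strand, and Spns2, 72451638 to 72489904, minus strand), chromosome 7 (Sphk2, 45709467 to 45718002, minus strand) and chromosome 12 (Sgpp1, 75714249 to 75735729, minus strand), all protein-coding. S1pr3 overlaps Gm32834 and Sphk1 overlaps Gm29292 on the other strand, so the limit given for Sphk2 and Spns2 holds for S1pr3 and Sphk1 as well. S1pr1, Sgpp1, S1pr4 and Plpp3 overlap no annotated gene.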

How the data were processed

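The authors deposited 1 matrix of unnormalised UMI counts, genes by cells, which was used here. The submitters' processing notes name Cell Ranger 2.1.1 and mm10. How cells were filtered and whether strand was used are not given in the sources used here, and no cell was above 10% mitochondrial UMIs. Counts were summed over cells and scaled to CPM. A CPM has an exact Poisson interval, a ratio an exact conditional binomial interval and a share an exact Clopper-Pearson interval, at 95%. For the first 2 kinds the counts were divided by 4, a choice made after the bunching of values was seen in place of intervals on every UMI. All intervals cover counting error only.

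A cell was gated to a class with at least 3 markers detected (melanocytic and leukocyte 2) and 4 times the UMIs of every other class. No doublet caller was run. Cells that missed these bounds stayed ungated, but gated cells could still hold some markers of other classes. Plvap was at 290 CPM in LEC-gated cells of the LEC sort, and Flt4 at 47.8 CPM in BEC-gated cells of the BEC sort. A Dct UMI was read in 46.6% of these LEC and 25.3% of these BEC. Subsets took own-type cells at a standardised score of 1 or more. Log2 ratios add 1 CPM. Cells were thinned to 5000 UMIs; none was shallower. The minimum for counting was 10 CPM in the higher group. The members, gates, subset markers and gene lists were chosen with earlier results of these data known. Named genes were the 6 members, gate markers, up to 6 genes of each list at 10 CPM by mean CPM, and the 5 likest genes of each member with at least 100 UMIs in a subset, among genes at 50 CPM. Also named, outside this rule, were S1pr2, S1pr5, Cd69, Mfsd2b and Sgpl1, all below 10 CPM in both sorts, and the genes said to be singled out. Positions came from GENCODE M21. The ratio, thinning and gating steps were tested on simulated data (Python 3.11.15, numpy 2.4.6, scipy 1.17.1, pandas 2.3.3, matplotlib 3.10.9).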

Additional observations from a re-analysis of the deposited data

How the results depend on the processing

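No ratio changed its direction by more than its counting error under any alternative run. On the log2 scale, S1pr1 over all cells was -0.40, against -0.58 under size factors from the median of ratios (a shift of -0.18), -0.18 in own-type cells and -0.24 without melanocytic, stromal and leukocyte gates. S1pr3 was 1.93, against 0.069 in own-type cells, 0.44 without those gates and 1.2 with cells weighted equally. Spns2 was 0.79, against 0.62 with size factors and 0.95 without those gates. The 2 members at least 2-fold higher in LEC were 0 at a minimum of 50 CPM and 1 in own-type cells, and the 6 other pathway genes at least 2-fold higher in BEC over all cells were 3 at 50 CPM. Sphk1 lay between 3.42 and 4.11 over all cells and between 3.73 and 4.04 in own-type cells, with the gate at 2 or 10 times, without cycling cells, or with ungated cells added (chosen after seeing the data, as was leaving out the barcodes shared by the sorts). The main Sphk1 values, 3.56 over all cells and 3.95 in own-type cells, add 1 CPM to each level. They are therefore smaller than the ratios with nothing added, 18.2-fold and 33.3-fold. The other 83 comparisons of a ratio or count between sorts moved by less than their interval. So did 163 of 186 alternative values of ratios of a subset to the other own-type cells and of shares of cells. The 23 that moved were shares of cells at another thinning depth. Intervals on every UMI are narrower, 25.4 to 44.5 for Sphk1 in own-type cells in place of 19.4 to 62.1.

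No paired analysis was possible because the names of the cells carry no library number; leaving out each library in turn was not run for the same reason. Levels under 1 CPM rest on few UMIs, and differences between animals, sorts and libraries could not be estimated.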
